A study of Mus musculus with 6 samples.

Results

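The E2f and Dp genes encode the transcription factors that time the entry of a cell into DNA synthesis. The mouse family examined here holds 8 E2f genes and the 2 Dp genes Tfdp1 and Tfdp2, whose products pair with most E2f proteins to bind DNA. All 10 were found by symbol among 41128 genes in the authors' deposited table, and all 10 were among the 13597 tested genes, those averaging at least 1 RPM over the libraries (RPM is the reads of a gene scaled to a total common to all libraries). They were read as 4 classes. The activators E2f1, E2f2 and E2f3 are held in check by the retinoblastoma protein in resting cells and switch on genes for DNA replication when cyclin-dependent kinases release them. The repressors E2f4 and E2f5 act with the related pocket proteins p107 and p130 in quiescent cells, and E2f6, grouped with them here, represses without a pocket protein as part of a Polycomb complex. The atypical members E2f7 and E2f8 carry a duplicated DNA-binding domain, bind without a Dp partner and repress E2f targets late in S phase. Long-term blood stem cells are mostly quiescent, and the family forms part of their switch between rest and division.

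The cells came from C57BL mice dosed under the skin with YH250 at 2 mg per kg, which the series title calls a p300/catenin antagonist, or with the vehicle DMSO. Marrow was collected after 16 h and sorted as Lin-Sca1+c-Kit+CD41-CD48-CD150+ cells, the surface phenotype of long-term repopulating stem cells (LTR-HSC). Poly(A) RNA was sequenced from 3 YH250 and 3 DMSO libraries, numbered 1 to 3 in each group. Nothing in the labels says that the libraries came from separate animals, so the p-values measure only the spread between these libraries.

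A level of 1 RPM stood for 23.97 to 31.2 reads in the YH250 libraries and 21.95 to 27.2 reads in the DMSO libraries. The stem cell label was checked against 12 markers, all of which passed the filter, and their summed level was 1450, 1519 and 850 RPM in YH250 1, 2 and 3 and 1729, 1671 and 925 RPM in DMSO 1, 2 and 3. Summed levels of 10 multipotent and lymphoid-primed progenitor markers ran the other way, at 448, 1370 and 2480 RPM in YH250 1, 2 and 3 and 373, 1182 and 2439 RPM in DMSO 1, 2 and 3. Both libraries numbered 3 therefore stood apart from the other 4 on both lists. On the progenitor list the other 4 were not alike, since those numbered 1 lay below those numbered 2. YH250 2 stood apart in another respect: 10 endothelial and stromal markers summed to 421 RPM there and to 113 to 131 RPM in the other 5 libraries. In such bulk samples, fewer cells of a type and less RNA per cell cannot be told apart.

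Promoter windows of the members were inspected because E2f genes are themselves known E2f targets, a loop in which activators raise and atypical members damp their own family. RefSeq windows on GRCm38.p6, each of 300 bases with 250 before the transcription start and 50 from it, were found for 8 of the 10 genes, and E2f4 and E2f5 were not matched. The E2f site was searched as TTTNNCGC on both strands. Of the 8 genes, 4 held a match in at least 1 window, namely E2f2, E2f3, E2f7 and Tfdp1, while 5.17% of all 32851 windows did (95% Wilson interval 4.93% to 5.41%), and 5.93% of 27025 genes did in any window. The E2f1 window begins from a start site 466 bases inside the GENCODE gene, and both Tfdp2 windows from sites 62430 and 62973 bases inside, so the outermost starts of these 2 genes were not searched. Of 33 genes with a window on a list of G1/S targets of E2f, 15 held the motif, and of 17 on a list of G2/M genes, 0 did. The 4 windows shown are those of E2f2, the member that separated the libraries most, of E2f3 and E2f7, which also hold the narrower form TTTCCCGC or TTTGGCGC, and of E2f8, whose window has no match. They run 5′ to 3′ on the gene's strand, with the matches to TTTNNCGC in capitals.
E2f2 at chr4:136172024-136172323, plus strand:
E2f2: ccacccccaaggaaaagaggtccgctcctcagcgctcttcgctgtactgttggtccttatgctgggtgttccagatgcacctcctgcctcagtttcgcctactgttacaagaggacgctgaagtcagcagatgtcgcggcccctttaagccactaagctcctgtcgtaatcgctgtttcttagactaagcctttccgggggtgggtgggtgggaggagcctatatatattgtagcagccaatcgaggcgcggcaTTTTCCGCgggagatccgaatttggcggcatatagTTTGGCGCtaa
E2f3 at chr13:29986014-29986313, minus strand:
E2f3: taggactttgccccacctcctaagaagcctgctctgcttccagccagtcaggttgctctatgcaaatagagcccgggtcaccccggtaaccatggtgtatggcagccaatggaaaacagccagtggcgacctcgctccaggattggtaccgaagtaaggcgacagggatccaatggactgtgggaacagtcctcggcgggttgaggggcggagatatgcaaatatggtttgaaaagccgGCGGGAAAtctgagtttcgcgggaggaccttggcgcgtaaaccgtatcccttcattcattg
E2f7 at chr10:110745189-110745488, plus strand:
E2f7: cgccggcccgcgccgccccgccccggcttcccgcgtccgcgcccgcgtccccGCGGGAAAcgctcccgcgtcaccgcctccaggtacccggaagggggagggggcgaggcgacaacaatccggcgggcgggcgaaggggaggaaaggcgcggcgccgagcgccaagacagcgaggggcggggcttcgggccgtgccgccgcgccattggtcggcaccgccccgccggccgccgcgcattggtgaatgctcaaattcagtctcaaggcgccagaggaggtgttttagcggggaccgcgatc
E2f8 at chr7:48881547-48881846, minus strand:
E2f8: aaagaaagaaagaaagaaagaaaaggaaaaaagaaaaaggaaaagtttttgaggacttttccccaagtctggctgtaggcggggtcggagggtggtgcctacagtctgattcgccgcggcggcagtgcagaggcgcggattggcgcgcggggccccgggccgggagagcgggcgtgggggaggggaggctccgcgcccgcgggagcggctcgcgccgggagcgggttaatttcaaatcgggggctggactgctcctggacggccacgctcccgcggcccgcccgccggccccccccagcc

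In the E2f2 window the matches TTTTCCGC and TTTGGCGC began 5 and 40 bases downstream of the RefSeq start. In E2f3 the reverse-strand match GCGGGAAA began 11 bases upstream of the start, and in E2f7 the same letters began 198 bases upstream. Tfdp1 held GCGCGAAA 43 bases upstream of one RefSeq start and 96 bases upstream of another. With this narrower form alone counted, 1.56% of all windows and E2f2, E2f3 and E2f7 among the members held a match. A match is a run of letters and not a measured binding site, and a window without one says nothing of binding elsewhere in the gene.

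Per kilobase of exon, E2f4 and Tfdp1 gave the highest levels of the family, at 20.6 ± 4.98 and 17.4 ± 2.23 RPM per kilobase over all 6 libraries (mean ± SD). The repressor E2f4 ranged between 11.7 and 26.7 RPM per kilobase and overlapped with Tfdp1, at 14.8 to 20.2 RPM per kilobase. E2f6 came next at 6.37 ± 1.48 RPM per kilobase, and its highest library, at 8.996 RPM per kilobase, lay below the lowest of E2f4 and of Tfdp1. The means of E2f5 at 5.46, E2f1 at 4.94, Tfdp2 at 3.79, E2f3 at 3.32 and E2f8 at 2.96 RPM per kilobase followed, and each neighbouring pair in this order overlapped across libraries. E2f2 at 1.26 and E2f7 at 0.946 RPM per kilobase were the lowest. The order depends on which length is used: divided by the longest transcript in place of all exons, E2f6 stood at 11.96 and Tfdp2 at 7.23 RPM per kilobase, which put Tfdp2 at rank 4, and E2f2 came last.

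**Figure D1:**
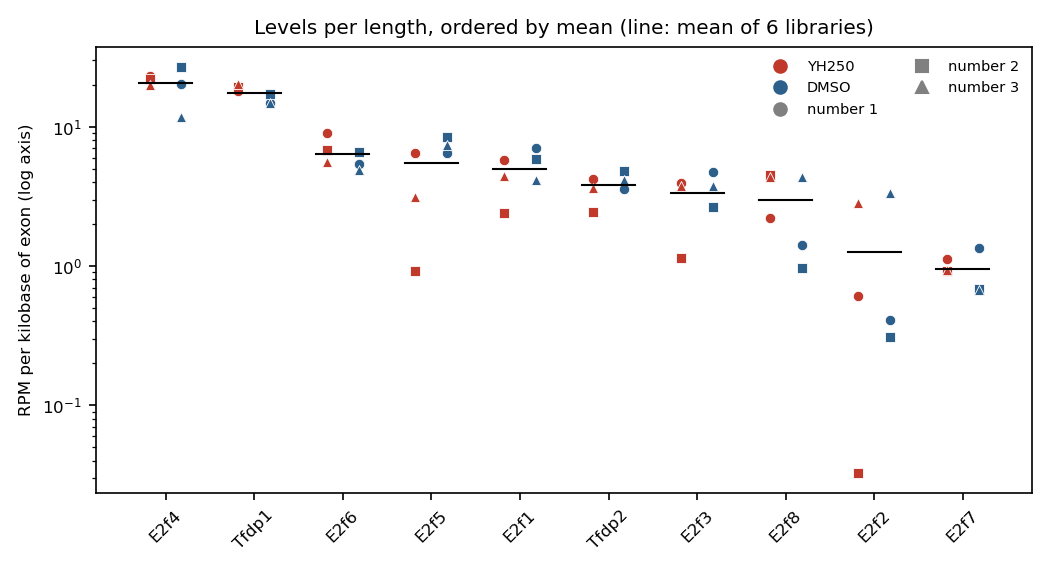
Levels of the 10 E2f and Dp genes in RPM per kilobase of exon on a log axis, ordered by their mean, with each YH250 and DMSO library as a point shaped by its number and the mean of 6 libraries as a line. E2f4 and Tfdp1 lie above all others in every library, and E2f2 spans 0.0328 to 3.32 RPM per kilobase.

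No E2f or Dp gene passed the test between YH250 and DMSO. With limma on log2(RPM + 1) and Benjamini-Hochberg adjustment over all 13597 genes, 0 of 10 members and 0 genes in all (0%) had an adjusted p under 0.05. The adjusted p of each member was 0.999. At an unadjusted p under 0.05 there were 0 of 10 members, against 231 of all genes (1.7%). The mean log2 level was higher in YH250 for 5 members and lower for 5, against 51.7% of all genes higher. With the replicate number as a block, 1 of 10 members (E2f5) had an unadjusted p under 0.05, against 7.44% of all genes. Positions of the genes below are from GENCODE M21 on GRCm38.

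The activator genes had lower means in YH250, and the pair of libraries numbered 2 differed most. E2f1 (chr2:154559407-154569892, minus strand), the activator best known for driving both S phase and apoptosis, had 18.2, 7.52 and 14.0 RPM in YH250 1, 2 and 3 and 22.2, 18.6 and 13.1 RPM in DMSO 1, 2 and 3. YH250 2 was the lowest library and the groups overlapped. The difference was -0.46 ± 0.40 in log2 (SE; exact two-sided permutation p = 0.4), and -0.13 without YH250 2. E2f3 (chr13:29906575-29986063, minus strand), an activator needed for normal proliferation in many cell types, had 21.3, 6.24 and 20.3 RPM in YH250 1, 2 and 3 and 25.6, 14.5 and 20.3 RPM in DMSO 1, 2 and 3. Again YH250 2 was the lowest and the groups overlapped, with a difference of -0.45 ± 0.48 in log2 (SE; exact permutation p = 0.6). Without YH250 2 the E2f3 difference turned to 0.08.

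E2f2 (chr4:136172394-136196057, plus strand) is an activator with known roles in red cell maturation and in limiting T cell division, and it varied most of the family. It had 2.98, 0.160 and 13.9 RPM in YH250 1, 2 and 3 and 2.00, 1.51 and 16.2 RPM in DMSO 1, 2 and 3. The value in YH250 2 rested on about 4.0 reads, and that in DMSO 3 on about 356. Both libraries numbered 3 were high, the other 4 were low, and the treatment groups overlapped almost fully. Its treatment difference was -0.30 ± 1.02 in log2 (SE; exact permutation p = 0.9), and it turned to 0.61 without YH250 2 and to 0.58 without DMSO 3.

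Among the repressors, E2f5 had the largest difference in mean log2 of any member. E2f5 (chr3:14578641-14606309, plus strand), which acts with p130 in quiescent and differentiating cells, had 11.6, 1.64 and 5.59 RPM in YH250 1, 2 and 3 and 11.6, 14.9 and 13.1 RPM in DMSO 1, 2 and 3. YH250 2 and 3 lay below every DMSO library, while YH250 1 was just above DMSO 1. The group means were 6.28 ± 5.02 RPM in YH250 and 13.2 ± 1.70 RPM in DMSO (SD, n = 3 each). The difference was -1.23 ± 0.57 in log2 (SE; exact permutation p = 0.2). With the replicate block the SE was 0.49 (limma, adjusted p = 0.66). It was -0.63 without YH250 2, where the value rested on about 41.0 reads, and -0.54 without both libraries numbered 2. E2f5 overlaps the gene 1810022K09Rik on the other strand, which had 112 to 242 RPM, and it is not stated whether the counting used strand.

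E2f4 (chr8:105297663-105305370, plus strand), which is needed for the formation of red cells, had 56.5, 53.7 and 49.0 RPM in YH250 1, 2 and 3 and 49.5, 65.5 and 28.8 RPM in DMSO 1, 2 and 3. The lowest and the highest value were both DMSO libraries. The difference was 0.22 ± 0.31 in log2 (SE; exact permutation p = 0.8) and turned to -0.10 without DMSO 3. E2f6 (chr12:16810963-16839742, plus strand) had 50.9, 38.5 and 31.5 RPM in YH250 1, 2 and 3 and 30.8, 37.3 and 27.6 RPM in DMSO 1, 2 and 3. It was higher in YH250 at each of the 3 numbers, by 0.71, 0.05 and 0.18 in log2, yet the groups overlapped. Its difference over the groups was 0.31 ± 0.27 in log2 (SE; exact permutation p = 0.2), with 0.13 without YH250 1 and 0.47 without YH250 3.

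The atypical genes differed from each other. E2f8 (chr7:48866429-48881596, minus strand) had 11.9, 24.6 and 23.6 RPM in YH250 1, 2 and 3 and 7.75, 5.27 and 23.7 RPM in DMSO 1, 2 and 3. YH250 2, YH250 3 and DMSO 3 were high at close to the same level, and DMSO 1 and 2 were low. The difference was 0.86 ± 0.54 in log2 (SE; exact permutation p = 0.3), with 0.57, 2.03 and -0.01 at numbers 1, 2 and 3. It was 0.28 without both libraries numbered 2, 0.45 without DMSO 2 and 1.44 without DMSO 3. E2f8 shares a run of 339 identical bases with Gm2788, a processed transcript that overlaps it on the other strand. Gm2788 itself had 2.82, 17.4 and 3.42 RPM in YH250 1, 2 and 3 and 0.430, 1.03 and 3.74 RPM in DMSO 1, 2 and 3, so the library with the most Gm2788 was also the one with the most E2f8, and the part of shared reads was not tested. E2f7 (chr10:110745439-110787384, plus strand), which acts together with E2f8, had 10.1, 8.29 and 8.40 RPM in YH250 1, 2 and 3 and 12.1, 6.17 and 6.09 RPM in DMSO 1, 2 and 3. The groups overlapped, and the difference was 0.18 ± 0.41 in log2 (SE; exact permutation p = 0.6), with 0.03 without DMSO 3 and 0.47 without DMSO 1.

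Of the Dp partners, Tfdp1 was the only member whose groups did not overlap. Tfdp1 (chr8:13338751-13378448, plus strand), the main dimer partner of the E2f proteins, had 65.8, 70.7 and 74.0 RPM in YH250 1, 2 and 3 and 54.3, 63.1 and 54.5 RPM in DMSO 1, 2 and 3. Every YH250 library lay above every DMSO library; the closest pair was YH250 1 and DMSO 2. That held for 1 of 10 members and for 3.79% of all tested genes. The means were 70.2 ± 4.17 RPM in YH250 and 57.3 ± 5.06 RPM in DMSO (SD, n = 3 each), and the difference was 0.29 ± 0.21 in log2 (SE; exact permutation p = 0.1, the smallest that 3 against 3 libraries can give). A pseudogene, Gm7390, matches Tfdp1 transcripts over 1230 bases at 97.6% identity, and its own level was not analysed here. Higher at all 3 numbers were 2 of 10 members, Tfdp1 and E2f6, against 16.1% of all genes.

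Tfdp2 (chr9:96196275-96323646, plus strand), the partner with more restricted expression, had 58.7, 34.1 and 51.2 RPM in YH250 1, 2 and 3 and 50.0, 67.0 and 57.9 RPM in DMSO 1, 2 and 3. YH250 2 was the lowest library and the groups overlapped. Its difference was -0.30 ± 0.27 in log2 (SE; exact permutation p = 0.5), and -0.08 without YH250 2.

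**Figure D2:**
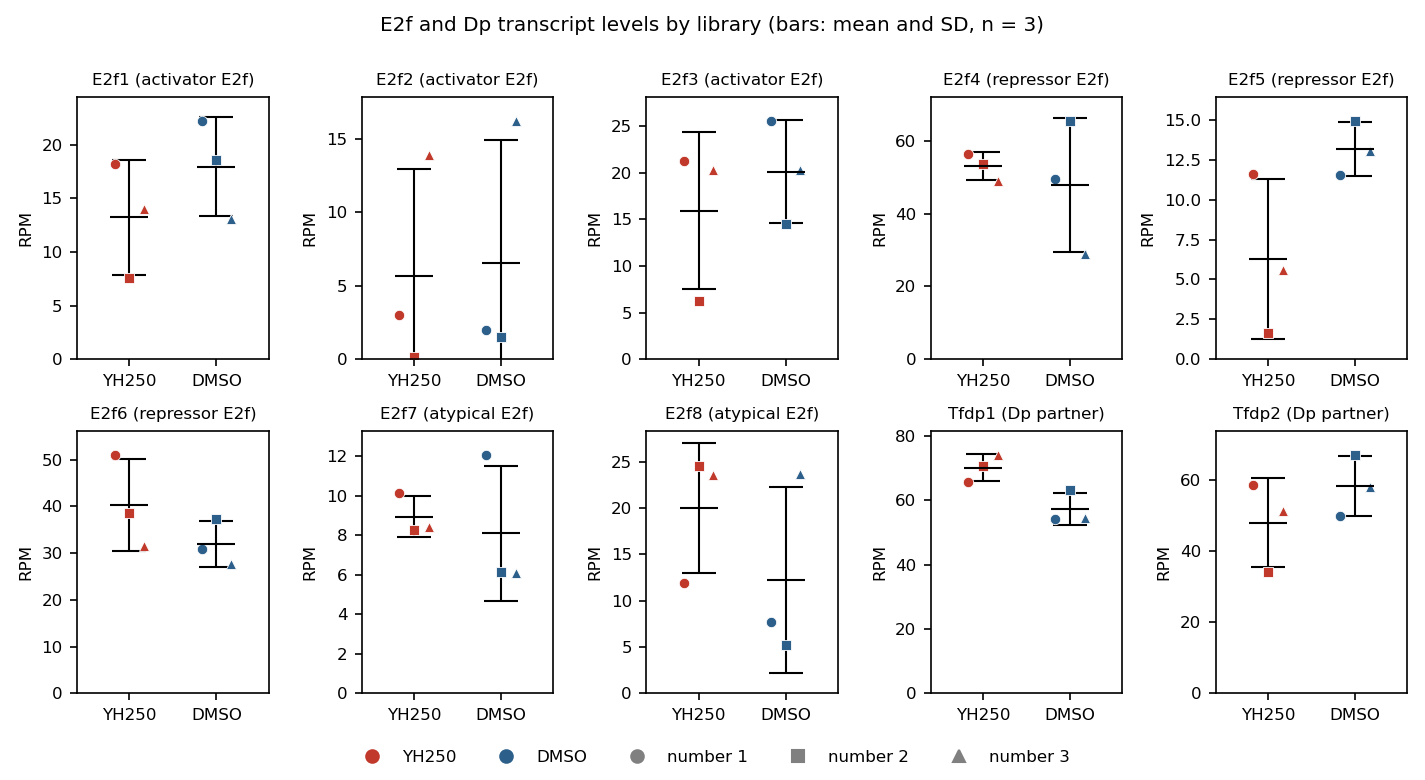
RPM of each E2f and Dp gene in every library, 1 panel a gene on its own axis from 0, with YH250 left of DMSO, points shaped by number, and bars for mean and SD (n = 3, cut at 0 for E2f2). Tfdp1 alone shows no overlap of the groups, at 65.8 to 74.0 RPM in YH250 and 54.3 to 63.1 RPM in DMSO.

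**Figure D3:**
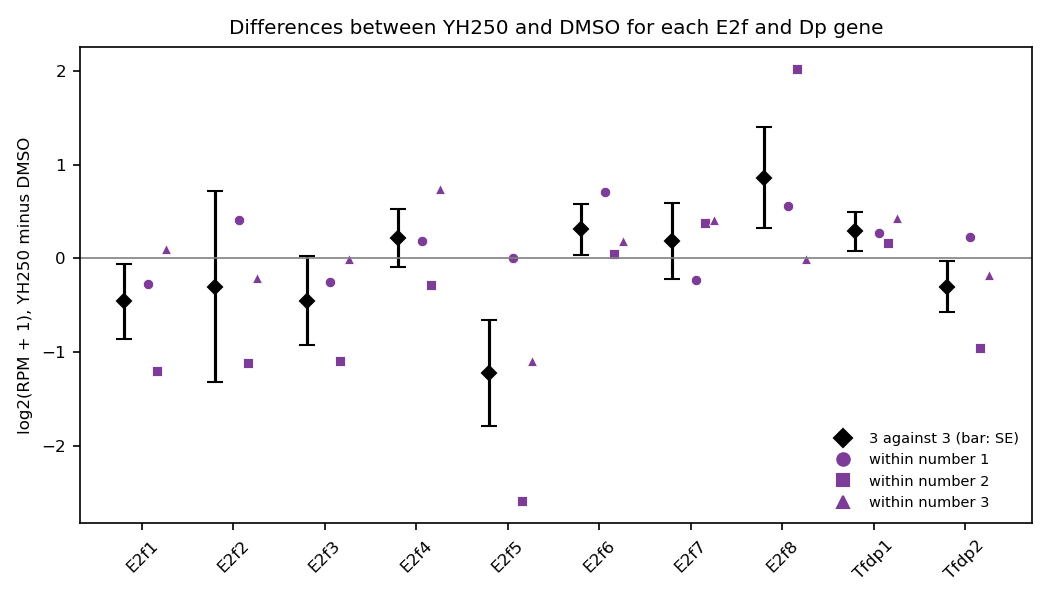
Difference in log2(RPM + 1), YH250 minus DMSO, for each gene, as the fitted value with its SE (diamond) and as the difference within each replicate number (other points). E2f5 lies lowest at -1.23 ± 0.57 and E2f8 highest at 0.86 ± 0.54, and for both the pair numbered 2 differs most.

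Averaged by class, activators and atypical members lay furthest apart in YH250 2. The mean log2(RPM + 1) of the activators was 3.58, 2.05 and 4.07 in YH250 1, 2 and 3 and 3.62, 3.19 and 4.11 in DMSO 1, 2 and 3. Repressors averaged 5.07, 4.16 and 4.46 in YH250 1, 2 and 3 and 4.77, 5.10 and 4.52 in DMSO 1, 2 and 3 on the same scale. Atypical members averaged 3.59, 3.95 and 3.93 in YH250 1, 2 and 3 and 3.42, 2.74 and 3.73 in DMSO 1, 2 and 3. The activator and repressor means were thus lowest in YH250 2, as was the Dp mean at 5.65. The atypical mean was highest in YH250 2, though close to that of YH250 3. Of its 2 genes only E2f8 was highest in YH250 2, while E2f7 had 8.29 RPM there and 12.1 RPM in DMSO 1. The sum of endothelial and stromal markers also stood apart in YH250 2, carried by a part of the list. A sort on blood stem cell markers is meant to leave such cells out, and their part in the result was not tested.

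The difference between YH250 and DMSO was -0.40 for activators, -0.23 for repressors, 0.52 for atypical members and close to 0 for the Dp pair, in mean log2. Without the pair numbered 2, these became -0.04 for activators, 0.12 for repressors, 0.18 for atypical members and 0.19 for the Dp pair. Atypical minus activator was 0.01, 1.89 and -0.15 in YH250 1, 2 and 3 and -0.20, -0.45 and -0.39 in DMSO 1, 2 and 3. Each YH250 library therefore lay above each DMSO library on this contrast, by 0.05 at the closest, but with a pseudocount of 0.5 and rescaling to the genes' sum the groups overlapped by 0.01. Activator minus repressor was -1.49, -2.11 and -0.39 in YH250 1, 2 and 3 and -1.15, -1.91 and -0.41 in DMSO 1, 2 and 3. On that contrast the groups overlapped, and the numbers ordered alike in both groups, 2 lowest and 3 highest. These class values are descriptions and were not tested.

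Between replicate numbers, with treatment as a second term, E2f2 was the only member to pass. Number 3 against number 1 called 1 of 10 members and 8.56% of all genes, number 3 against number 2 called 1 of 10 members and 6.31%, and number 2 against number 1 called 0 of 10 members and 0.199%. E2f2 rose in number 3, at 13.9 RPM in YH250 3 and 16.2 RPM in DMSO 3, against 2.98 RPM in YH250 1, 2.00 RPM in DMSO 1, 0.160 RPM in YH250 2 and 1.51 RPM in DMSO 2. The difference was 2.21 ± 0.55 in log2 against number 1 (SE, 2 against 2 libraries, limma, adjusted p = 0.0379) and 3.23 ± 0.55 against number 2 (limma, adjusted p = 0.0114). The call against number 1 was lost without YH250 3, DMSO 1 or DMSO 3 (2.14, 1.68 and 2.29 in log2), as was the call against number 2 without YH250 3 or DMSO 3 (3.16 and 3.30). The libraries numbered 3 also had the highest sums of progenitor markers and the lowest sums of stem cell markers. For number 2 against 1, 10 of 10 progenitor markers were higher and 6 were called, while E2f2 was lower in mean (-1.02 ± 0.55 in log2). T and NK cell markers summed to 588 RPM in YH250 3 and 611 RPM in DMSO 3, against 86.8 to 244 RPM in the other 4 libraries. Nkg7 alone had 283 RPM in YH250 3 and 340 RPM in DMSO 3, and 16 of 16 markers of that list were higher in number 3 than in number 1. B cell markers summed to 898 RPM in YH250 3 and 706 RPM in DMSO 3, against 65.6 to 301 RPM in the other 4. Myeloid markers summed to 944 RPM in YH250 3 and 952 RPM in DMSO 3, against 327 to 675 RPM. The myeloid sum was carried by Ly6c2, at 336 RPM in YH250 3 and 246 RPM in DMSO 3, and Mpo, at 223 and 175 RPM. Lyz2 was lowest in these libraries, at 101 and 124 RPM, against 128 to 236 RPM in the other 4. For number 3 against 1, 13 of 15 myeloid markers were higher and 2 lower, with 2 called higher. No marker of these lists was at 0 in all libraries, but the B cell marker Pax5 reached only 0.273 RPM and failed the filter. The sort for cells without lineage markers and CD48 is meant to remove such cells, and their part in the E2f2 result was not tested.

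Erythroid markers summed to 575 RPM in YH250 3 and 803 RPM in DMSO 3, against 1289 to 2075 RPM in the other 4 libraries, a sum carried by Car2, a carbonic anhydrase, at 429 RPM in YH250 3 and 549 RPM in DMSO 3, against 1147 to 1685 RPM. On that list, 8 of 11 tested markers were lower in number 3 than in number 1 and 3 were higher. Tfrc, the transferrin receptor, was high in both libraries numbered 3. Epor was low there, at 0.208 RPM in YH250 3 and 1.05 RPM in DMSO 3, against 3.86 to 9.47 RPM in the other 4 libraries. Klf1 was at 0.876 RPM in YH250 3 and 1.55 RPM in DMSO 3, but DMSO 1 was alike at 1.65 RPM. Gata1 was at 0.334 RPM in YH250 3 and 5.83 RPM in DMSO 3, above DMSO 2 at 0.809 RPM. The part of red cell precursors in the E2f2 result was not tested. E2f8 had the next largest difference of number 3 against number 1, at 1.21 ± 0.49 in log2, with an adjusted limma p of 0.166. Over the alternatives this E2f8 difference ran from 0.56 to 1.86. E2f3 had a lower mean in number 2 than in number 1 (-1.20 ± 0.38, limma, adjusted p = 0.233), as had E2f1 (-0.71 ± 0.41) and E2f5 (-0.96 ± 0.60). Without DMSO 2, where YH250 2 alone stood for number 2, the differences were -1.69 for E2f3, -1.26 for E2f1 and -1.98 for E2f5. Of the genes called for number 3 against number 1, 761 were higher and 403 lower. After rescaling each library to its genes' sum the split was 466 higher and 892 lower, and after quantile normalization 642 higher and 661 lower, since these shift the median of all genes by -0.32 and -0.10 in log2. Tfdp1 and Tfdp2, at 0.09 and 0.01, changed sign under both.

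**Figure D4:**
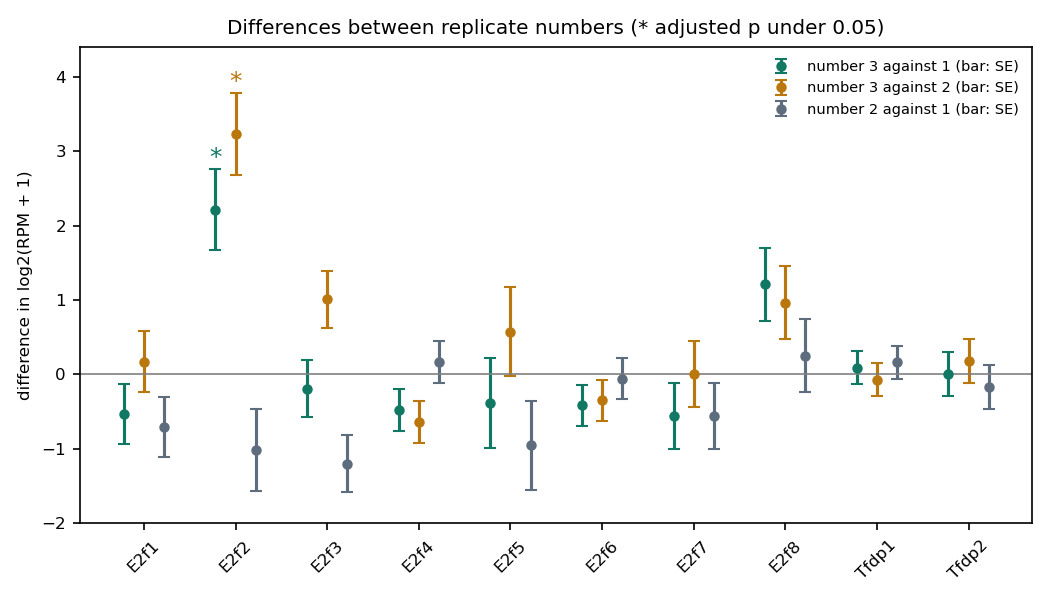
Differences in log2(RPM + 1) between replicate numbers for each gene, fitted with treatment as a second term (bars are SE, 2 libraries a number). Only E2f2 is marked as passing an adjusted p of 0.05, at 2.21 for number 3 against 1 and 3.23 for number 3 against 2.

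The regulators of the family showed no called difference between YH250 and DMSO. All 3 pocket protein genes were lower in mean, with a median difference of -0.08 in log2 against 0.02 for all genes. Single libraries turned this: all 3 were higher without DMSO 3 (median 0.14) and 2 of 3 without YH250 2 (0.09), while the median was -0.28 without YH250 3. Rb1, the retinoblastoma gene, differed by -0.15 ± 0.39, Rbl1, which encodes p107, by -0.08 ± 0.29, and Rbl2, which encodes p130, by -0.02 ± 0.26 (log2, SE). Of 8 genes for the MuvB core and its partners, which form the DREAM complex with E2f4 and the pocket proteins, 6 were higher and 2 lower, with a median of 0.13. Only 3 of 8 were higher without DMSO 1 (median -0.13) and 4 of 8 without YH250 3. Foxm1, the MuvB partner that drives mitotic genes, had 12.2, 16.7 and 18.2 RPM in YH250 1, 2 and 3 and 5.60, 0.846 and 16.95 RPM in DMSO 1, 2 and 3. DMSO 1 and 2 were low while DMSO 3 lay among the YH250 libraries, and the difference was 1.45 ± 0.73 in log2. Rbbp4, a MuvB core and chromatin protein, differed by 0.21 ± 0.24. Dyrk1a, the kinase that promotes DREAM assembly, differed by -0.64 ± 0.31 and Mybl2, the MuvB partner B-Myb, by -0.36 ± 0.67 in log2.

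Of 17 genes that regulate Rb between G1 and S phase, 15 were tested, 9 were higher in YH250 and 6 lower, and the median was 0.03. Cdkn2a, a locus encoding Rb and p53 pathway inhibitors, was listed at 0 in all libraries. Cdk4, a kinase that phosphorylates Rb, differed by 0.29 ± 0.22 in log2, and Ccne2, a cyclin of the next step, by 0.48 ± 0.42. Cdkn1b, which encodes the inhibitor p27, differed by -0.24 ± 0.39, and Cdk6, the other G1 kinase, by -0.16 ± 0.53. Between numbers this list held called genes: Cdk6 had 99.97 RPM in YH250 3 and 107 RPM in DMSO 3, against 31.5 to 40.9 RPM in the other 4 libraries (1.56 ± 0.24 in log2 for number 3 against 1, limma, adjusted p = 0.00399). Cdkn1c, which encodes the quiescence inhibitor p57, fell in number 3, at 2.71 RPM in YH250 3 and 8.47 RPM in DMSO 3, against 15.9 to 56.6 RPM in the other 4 (-3.07 ± 0.49, limma, adjusted p = 0.00547).

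Partners of E2f6 in its Polycomb complex split evenly, with 6 of 12 higher in YH250 and a median of -0.03 in log2. Hdac1, a histone deacetylase, had 120, 130 and 122 RPM in YH250 1, 2 and 3 and 88.2, 91.5 and 91.5 RPM in DMSO 1, 2 and 3. Its groups did not overlap, with a difference of 0.45 ± 0.20 in log2 (limma, adjusted p = 0.999). Rnf2, the ubiquitin ligase of the complex, differed by 0.26 ± 0.25, Mga, its DNA-binding scaffold, by -0.41 ± 0.30 and Wdr5 by -0.37 ± 0.28 in log2. Cbx3, a heterochromatin protein, was the gene of this list called for number 3 against 1 (0.93 ± 0.21, limma, adjusted p = 0.0273). Of 10 germline genes that E2f6 is known to silence, 8 failed the filter on the mean. Mael and Stk31 were listed at 0 in all libraries, and 6 of the list, these 2 included, were under 1 RPM in every library. Smc1b reached 1.31 RPM in YH250 1 and 1.57 RPM in DMSO 1, and Tex11 reached 1.13 RPM in YH250 3. The 2 tested were Zcwpw1, at 0.36 ± 0.44, and Stag3, at -0.28 ± 0.53 in log2.

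Genes that activator E2f proteins switch on for replication were mostly higher in YH250 in mean, though no single gene passed. Of 42 G1/S targets, all tested, 40 were higher and 2 lower, with a median of 0.38 in log2, against 51.7% of all genes higher and a median of 0.02. Groups did not overlap for 7 of them, and 24 were higher at all 3 numbers, beside the 3.79% and 16.1% of all genes given above. Lig1, the ligase that joins replicated strands, had 89.7, 102 and 111 RPM in YH250 1, 2 and 3 and 60.3, 52.4 and 66.2 RPM in DMSO 1, 2 and 3. All YH250 libraries lay above all DMSO libraries, at 0.75 ± 0.22 in log2 (limma, adjusted p = 0.999). Pole, the catalytic subunit of a replicative polymerase, had 46.0, 59.3 and 41.5 RPM in YH250 1, 2 and 3 and 25.5, 23.96 and 29.8 RPM in DMSO 1, 2 and 3, again without overlap (0.86 ± 0.25 in log2). The 2 lower genes were Mybl2 at -0.36 and Ung, a uracil glycosylase, at -0.08 ± 0.51. Cell type markers differed in mean as well, with 0 genes called in any list. Higher in YH250 were 13 of 16 T and NK cell markers (median 0.69), 8 of 9 tested B cell markers (0.61) and 8 of 10 progenitor markers (0.47). Of 12 stem cell markers, 9 were lower (-0.22). Also higher were 9 of 15 myeloid markers (0.23), 7 of 8 tested endothelial and stromal markers (0.19) and 5 of 11 tested erythroid markers (-0.08). The part of such cells in the G1/S and G2/M values was not tested. Leaving out single libraries left 34 to 42 of the 42 higher, with 34 without YH250 3 and a median of 0.23 without DMSO 2 and 0.64 without DMSO 3.

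G2/M genes that the DREAM complex represses were less even. Of 20, all tested, 17 were higher in YH250 and 3 lower, with a median of 0.43 in log2, but 11 were higher without YH250 3 and 11 without DMSO 2, with medians of 0.12 in both cases, and the median was 0.72 without DMSO 3. The medians of the T and NK cell, B cell and progenitor markers given above were as large or larger. Cdc20, an activator of the anaphase-promoting complex, had 34.3, 40.2 and 36.5 RPM in YH250 1, 2 and 3 and 25.9, 17.2 and 25.9 RPM in DMSO 1, 2 and 3 (0.68 ± 0.27 in log2). Aurka, a mitotic kinase, had 22.8, 28.1 and 38.7 RPM in YH250 1, 2 and 3 and 18.3, 7.80 and 19.5 RPM in DMSO 1, 2 and 3 (0.99 ± 0.40 in log2). Neither gene's groups overlapped, and neither had an adjusted p under 0.05. Cenpe, a mitotic kinesin, differed by -0.76 ± 1.15 and Mki67, the proliferation antigen Ki-67, by -0.09 ± 0.58.

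Some genes of both lists were also called between numbers. For number 3 against 1, 8 of 20 G2/M genes rose and 0 fell, with a median of 0.84 in log2, and 3 of 42 G1/S targets rose and 1 fell, with a median of 0.52. The share of G1/S targets called is near the 8.56% of all genes, and rescaling to the genes' sum turned the split of calls over all genes, as given above. For number 3 against 2, 10 of 20 G2/M genes and 6 of 42 G1/S targets rose and 0 of either list fell (limma, adjusted p under 0.05), beside 6.31% of all genes called. Kif11, a spindle kinesin, had 110 RPM in YH250 3 and 97.3 RPM in DMSO 3, against 28.8 to 40.7 RPM in the other 4 libraries (1.40 ± 0.23 for number 3 against 1, limma, adjusted p = 0.00632). Rrm2, the ribonucleotide reductase subunit made in S phase, had 137 RPM in YH250 3 and 94.9 RPM in DMSO 3, against 20.2 to 70.6 RPM in the other 4 (1.71 ± 0.30, limma, adjusted p = 0.00864). Bub1 and Ezh2 were also called against number 1, at 1.67 ± 0.34 and 0.98 ± 0.21, and Mki67 and Brca1 against number 2, at 1.85 ± 0.21 and 2.09 ± 0.50. Rrm2 was also higher in YH250 at each of the 3 numbers, a difference that did not pass (1.16 ± 0.61 in log2; limma, adjusted p = 0.999).

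**Figure D5:**
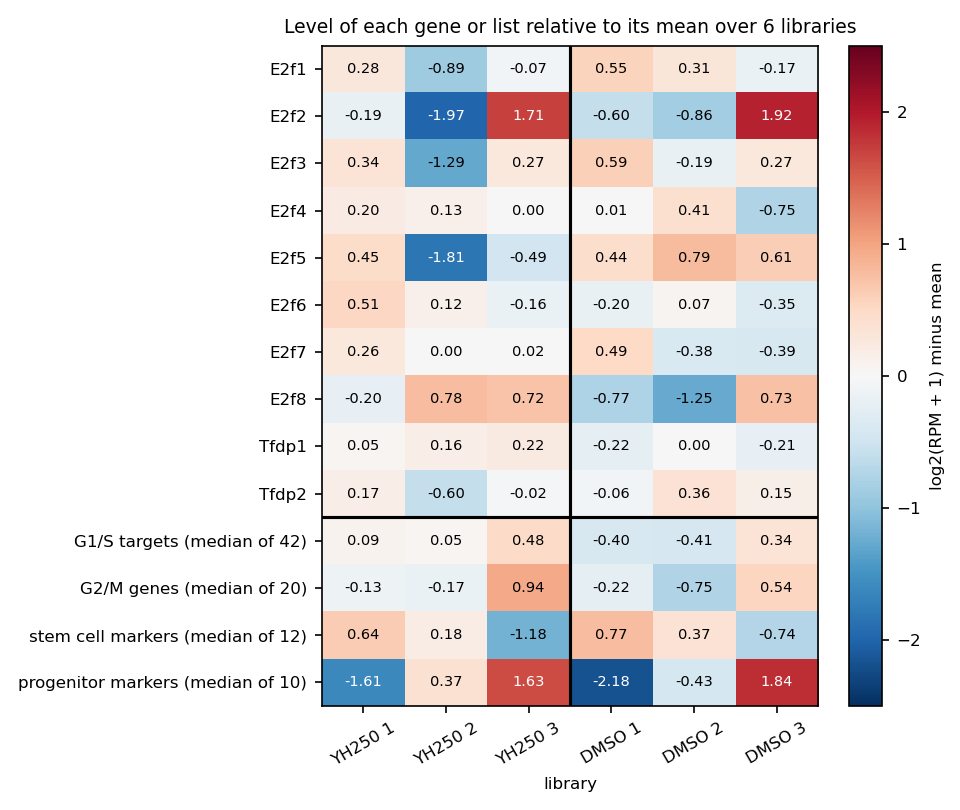
Level of each E2f and Dp gene, and the median of 4 gene lists, in each library as log2(RPM + 1) minus its mean over the 6 libraries (colour and printed value), YH250 libraries left. E2f2 is high in both libraries numbered 3, E2f1, E2f2, E2f3 and E2f5 are lowest in YH250 2, and the list medians of the G1/S targets and G2/M genes are highest in the libraries numbered 3.

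The spread over the 6 libraries was largest for E2f2, with an SD of 1.53 in log2, followed by E2f5 at 0.99 and E2f8 at 0.88, and smallest for Tfdp1 at 0.18. For these 3 variable members, the genes of most similar profile were ranked among 10629 genes averaging 5 RPM or more, by the root mean square difference of centred log2 values over the 6 libraries. Nearest to E2f2 were Gm26527 at 0.34, Tfrc at 0.35 and Myl4 at 0.36. Tfrc had 26.4, 7.52 and 111 RPM in YH250 1, 2 and 3 and 26.2, 31.7 and 104 RPM in DMSO 1, 2 and 3, so it shared the high values in number 3 and the low value in YH250 2. Nearest to E2f5 were Arxes2 at 0.12, Ak4, a mitochondrial adenylate kinase, at 0.16 and Pogk at 0.20. Nearest to E2f8 were Exo1, a DNA exonuclease, at 0.12, Ifi213 at 0.15 and Slc35b1 at 0.21. Exo1 had 15.8, 27.1 and 29.9 RPM in YH250 1, 2 and 3 and 8.37, 7.36 and 27.5 RPM in DMSO 1, 2 and 3. Such neighbours are a ranking over 6 libraries and carry no test.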

How the data were processed

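The authors deposited a single table of normalized signal, with 41128 Ensembl genes and 6 library columns. Partek, TopHat2 2.0.8, CASAVA 1.8.2 and the mouse build mm10 appear in the submitters' processing notes, with no role for any. Per the labels' protocols, cDNA came from an ultra-low-input kit and was read as single 50-base ends. The deposited signal has no stated unit. Its lowest value is 1 in every column and the excess over 1 falls in steps of 0.0321 to 0.0456, so it was read as RPM plus 1. Of the low values (up to 20 reads), 61.1% to 68.5% lay within 0.1 of a whole read, too few for a test on read counts. RPM not assigned to the listed genes made up the rest of each library's scaled total, as genes summed to 699979 to 959240 RPM.

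RPM was taken as the value minus 1. Symbols matched 40254 IDs. Genes averaging 1 RPM or more over the 6 libraries were tested as log2(RPM + 1), a scale that understates the change of low genes, with limma 3.58.1 in R 4.3.3 (trend and robust) and Benjamini-Hochberg adjustment over all 13597 genes. Replicate numbers were contrasted with treatment as a second term. Same-numbered libraries deviated from their group means together (correlations of 0.55, 0.26 and 0.70 for numbers 1, 2 and 3, all above 0.1). YH250 1 with DMSO 2, at 0.14, and YH250 2 with DMSO 1, at 0.11, were also above 0.1, and the remaining pairs of unlike number were negative. The number was therefore also fitted as a block, and the labels do not say what it stands for. Single members were also compared by an exact two-sided permutation test over libraries, 10 tests in all. The procedure was tested on simulated data in which, unlike here, same-numbered libraries did not deviate together. From each pathway list, the text names the 2 genes of smallest p with a higher and the 2 with a lower mean in YH250, the 2 called genes of largest difference between numbers, and all pocket protein genes. The lists share some genes, such as Mybl2. Members, lists and tests were chosen with earlier results of these data known. Alternatives were other pseudocounts, filters, scalings and libraries left out, and some were added after seeing the data. Protein sequences were not used here.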

Additional observations from a re-analysis of the deposited data

How the results depend on the processing

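The count of genes called between YH250 and DMSO was 0 in each of 17 alternatives, the fit with the replicate block included, and so was the count of E2f and Dp genes; the block, read as a paired fit, moved genes at an unadjusted p under 0.05 to 1012, against 231 without it, and changed no call. For number 3 against 1 the genes called were 1164, but 180 with no minimum mean, 526 with limma without trend and robust, and 414 to 2944 with a library left out. There the members called were 1, but 0 with a pseudocount of 0.5, no minimum mean, a minimum mean of 5 RPM, rescaling to the genes' sum or limma without trend and robust, and 0 to 2 with a library left out. For number 3 against 2 the genes called were 858, but 42 with no minimum mean, 154 without trend and robust, and 252 to 3122 with a library left out, and the members called were 1, but 0 with no minimum mean and 0 to 3 with a library left out. For number 2 against 1 the genes called were 27, but 0 with no minimum mean or without trend and robust, 75 with a minimum mean of 5 RPM, 46 with quantile normalization, and 43 to 1743 with a library left out, and the members called were 0 to 3. E2f2 kept its direction in number 3 under each alternative, with adjusted limma p between 0.000516 and 0.449 against number 1 and between 9.14e-05 and 0.122 against number 2.

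Other member differences changed sign (log2). With a library left out they ran, for YH250 minus DMSO, over -1.23 to 0.61 for E2f2, -0.73 to 0.078 for E2f3 and -0.10 to 0.48 for E2f4. For number 3 minus 1 they ran over -0.53 to 0.14 for E2f3, -1.31 to 0.54 for E2f5, -0.023 to 0.20 for Tfdp1 and -0.39 to 0.40 for Tfdp2. For number 3 minus 2 they ran over -0.38 to 0.72 for E2f1, -0.46 to 1.59 for E2f5, -0.17 to 0.17 for E2f7, -0.18 to 0.039 for Tfdp1 and -0.31 to 0.67 for Tfdp2. Without both libraries numbered 2, YH250 minus DMSO was 0.10 for E2f2 and 0.027 for Tfdp2, and without both numbered 3 it was -0.046 for E2f4. Rescaled to the genes' sum, number 3 minus 1 was -0.27 for Tfdp1 and -0.35 for Tfdp2, and number 3 minus 2 was -0.054 for E2f1, -0.21 for E2f7 and -0.055 for Tfdp2. With quantile normalization, number 3 minus 1 was -0.11 for Tfdp1 and -0.16 for Tfdp2, and number 3 minus 2 was -0.051 for E2f7. A library left out leaves a number with 1 library, assumed to vary like the others. The cause of these shifts was not tested, and values resting on few reads, such as E2f2 in YH250 2, are limited by depth.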
